A study of Homo sapiens with 6 samples.

Results

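The transcriptome of uninduced SK-N-AS cells was described from the 3 libraries labelled Control whose titles end in ETOH1, ETOH2 and ETOH3, out of 6 libraries in the series. SK-N-AS is a long-cultured line derived from a human neuroblastoma, a childhood tumour of the sympathetic nervous system. The cells carried a stably transfected MYCN expression system under the tetracycline repressor, were kept as single clones with 500 µg/ml G418 and 5 µg/ml blasticidin, and bear 120 h in their titles. The other 3 libraries came from the same cells after tetracycline had been given to induce MYCN and were used for one check of the labels only. The 3 control libraries thus came from one engineered line under selection. The study calls its replicates biologically independent experiments, while the labels tie no library to a culture. Total RNA had been depleted of ribosomal RNA and sequenced in pairs, so RNAs without a poly(A) tail were measured beside messenger RNA.

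Neuroblastoma arises from the sympathoadrenal branch of the neural crest, the embryonic cell population that gives rise to sympathetic neurons and the adrenal medulla. Cells of this tumour can take an adrenergic state, held by transcription factors such as HAND2 and GATA3, or a mesenchymal state closer to migrating crest cells, with factors such as TWIST1, PRRX1 and YAP1 and with extracellular matrix genes. Sympathetic neurons make noradrenaline from tyrosine, receive input through nicotinic acetylcholine receptors and depend on growth factor receptors of the tyrosine kinase class.

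The control libraries held 102249336, 87847999 and 101299285 read pairs assigned to genes. Levels were given as transcripts per 1000000 (TPM), the count of a gene divided by its exon length and scaled to the same total over the 60651 genes of each library, and as mean ± SD over the 3 libraries. A gene was called expressed at 1 TPM or more in each of the 3 libraries. Where a gene had 0 counts, the TPM that 3 counts would have made in the least favourable library was given as its limit, which covers counting error only. The libraries were not copies of one another. The chi-square statistic per gene between libraries was 12.1 for replicates 2 and 3, 48.3 for 1 and 2 and 82.4 for 1 and 3. Counting error alone would give values near 1, and exact copies would give 0. Among 5482 protein-coding genes with a mean of 10 TPM or more, the ratio of the highest to the lowest library had a median of 1.16.

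MYCN, the gene of the inducible construct, checked the labels. It stood at 20.03, 22.1 and 19.4 TPM in the 3 control libraries and at 135.5, 155 and 108 TPM in the 3 induced ones, so the ranges did not overlap. Counts at MYCN cannot tell apart the cell's own gene and uninduced construct, and the control level was therefore the sum of both. MYC, the related transcription factor that drives growth and biosynthesis genes (chromosome 8, 127735434-127742951), was read at 18.4, 18.99 and 19.2 TPM (18.9 ± 0.398 TPM, n = 3). The ratio of MYC to MYCN was 0.920, 0.858 and 0.991 in the 3 libraries, so uninduced cells held the 2 messages at similar levels.

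The other 3 marker genes given for this cell state were also expressed. VIM, the intermediate filament protein of mesenchymal and many cultured cells (chromosome 10, 17228241-17237593), was the highest of the 4 at 124, 114 and 109 TPM (116 ± 7.72 TPM). Over 20% of its exon bases lie inside exons of another gene, VIM-AS1, and read pairs there were divided between both. The counts were made without regard to strand as far as the file headers show, so reads of a gene and of its antisense partner cannot be told apart. HAND2, IGF2, RARA, CHRNA5, PRPH, NTF4, MXD3, CDK4, CD68, IRF1, IGF1, NEFM, HOXD8 and ENSG00000284779 are among the other genes given with values that overlap another gene to this extent. ELAVL4, a neuronal RNA-binding protein (chromosome 1, 50024029-50203772), followed with 51.7, 43.4 and 42.7 TPM (45.9 ± 5.03 TPM). FN1, which encodes fibronectin of the extracellular matrix (chromosome 2, 215360440-215436073), was the lowest with 6.09, 5.56 and 4.63 TPM (5.42 ± 0.737 TPM). VIM exceeded FN1 by 20.4-, 20.4- and 23.6-fold, and ELAVL4 exceeded FN1 by 8.50-, 7.81- and 9.22-fold. All 4 coordinates are of the GRCh38 build.

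Most read pairs came from nuclear protein-coding genes. Apart from histone and ribosomal protein genes, these took 69.2%, 69.1% and 68.1% of counts in the 3 libraries (68.8 ± 0.590%). The 37 genes encoded by the mitochondrial genome took 13.7 ± 0.345%. Long non-coding RNA (lncRNA) genes took 6.52 ± 0.257%, small structured RNA genes such as those of the signal recognition particle 6.08 ± 0.780%, and cytosolic ribosomal protein genes 3.19 ± 0.114%. Read pairs in exons shared by genes of different classes were divided between them. The lncRNA gene ENSG00000282885 had 589002, 399355 and 409242 counts in the control libraries. RN7SL2, a small structured RNA gene inside it, had 588950, 399318 and 409193. Histone genes took 0.288%, 0.377% and 0.457%, lowest in replicate 1 and highest in replicate 3.

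The order changed once counts were divided by length, because the small RNAs and mitochondrial messages are short. On the TPM scale small structured RNA genes held 34.6 ± 2.41%, mitochondrial genes 33.8 ± 2.00% and lncRNA genes 5.04 ± 0.238%. All nuclear protein-coding genes together held 23.9%, 23.4% and 22.9% of the TPM total. A TPM scale built from nuclear protein-coding genes alone would therefore have given values 4.19, 4.27 and 4.38 times as large. The TPM values here cannot be set directly beside those of poly(A)-selected libraries. Whether that factor would make them comparable was not tested.

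**Figure D1:**
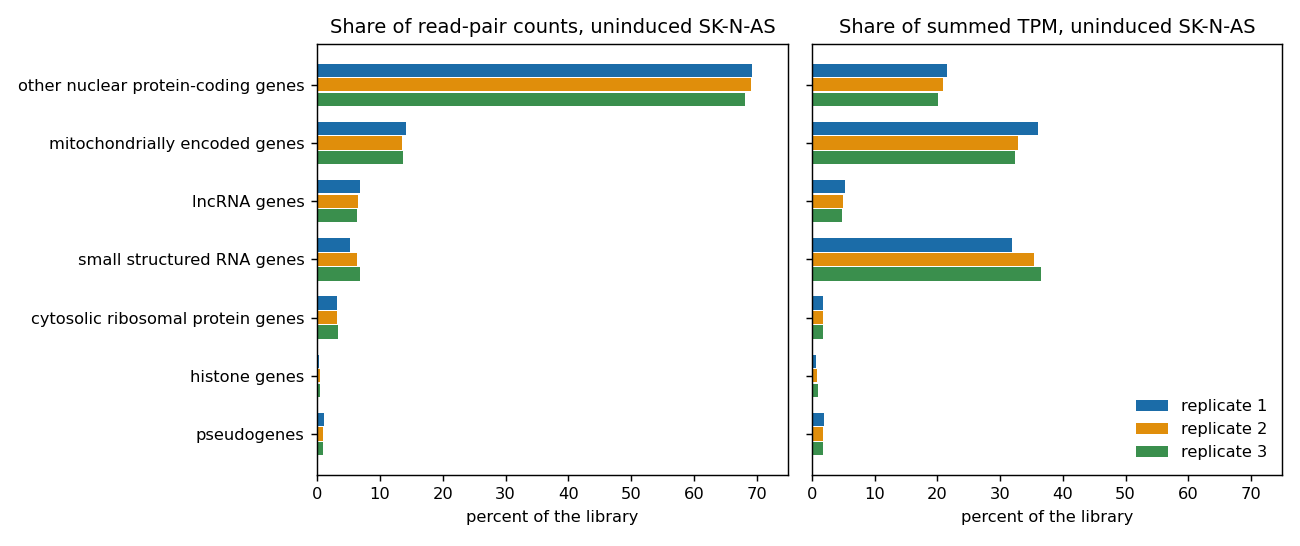
Percent of read-pair counts (left) and percent of summed TPM (right) taken by 7 gene classes, with 1 bar for each of the 3 control libraries and axes from 0. Nuclear protein-coding genes led the counts with 68.1% to 69.2%, whereas mitochondrial and small structured RNA genes each held over 30% of the summed TPM in every library.

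The 10 genes with the most counts took 15.6%, 16.4% and 17.0% of the libraries and were nearly all mitochondrial or small RNA genes. They were MT-ND4, MT-CO1, MT-ATP6, MT-ND2, MT-CO2 and MT-CO3 of the respiratory chain, RN7SL1 of the signal recognition particle, the nuclear lncRNA MALAT1, and RN7SK under 2 identifiers that share a locus. MALAT1 alone took 2.48%, 2.26% and 2.28% of counts. The RN7SK locus, whose RNA holds the elongation factor P-TEFb inactive, took 2.26%, 3.65% and 4.23%, a wider spread than that of MALAT1. RN7SL3, a copy of the signal recognition particle RNA, stood at 27069.9, 202 and 192 TPM, over 100 times higher in replicate 1 than in either of the others. RN7SL1, its near-identical copy, stood at 77569.9, 80947 and 71845 TPM and did not share that pattern. RN7SL3 was chosen after its values were seen, and counting of near-identical copies by unique alignments is uncertain.

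The most abundant nuclear messages were those of the cytoskeleton, translation, iron storage and a growth factor. TMSB10, an actin-binding thymosin, led with 1396, 1376 and 1270.3 TPM. RPS27 of the small ribosomal subunit stood at 1231 ± 102 TPM and FTL, the ferritin light chain, at 1194 ± 64.2 TPM. IGF2, an insulin-like growth factor of fetal tissue, stood at 1054, 1168 and 1138 TPM (1120.4 ± 59.1 TPM), within the range of these housekeeping messages. Its exons overlap those of INS-IGF2 and of ENSG00000284779, which stood at 1127 ± 57.6 TPM, and read pairs were divided between them, so the value given for IGF2 holds only part of the reads of that locus. Among the other genes of the 15 highest were ACTB, GAPDH, HSP90AB1, RPL8, RPL11, EEF1A1, RPS2, H2AC8 and ENSG00000260342, with means from 575 TPM for H2AC8 to 879 TPM for ACTB. Among lncRNA genes MALAT1 stood at 4309 ± 385 TPM. The other 9 of the 10 highest have no symbol in the annotation used, and over 20% of the exon bases of each lie inside another gene.

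Protein-coding expression was broad. Of 19870 nuclear protein-coding genes outside the Y chromosome, 11598 (58.4%) were expressed at 1 TPM or more in all 3 libraries, 5140 (25.9%) at 10 TPM or more and 281 (1.41%) at 100 TPM or more. At the other end 2186 (11.0%) had 0 counts in all 3 libraries, and 5361 (27.0%) stayed below 0.1 TPM, these included. The libraries differed little in which genes passed 1 TPM, with 345 (1.74%) above it in some libraries but not in all. Of the summed protein-coding TPM, 50% came from 1105 genes and 90% from 6277.

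The adrenergic factors were present at high levels, led by HAND2. Of 20 adrenergic transcription factors, 15 (75%) were expressed, beside 58.4% of all protein-coding genes. HAND2, a basic helix-loop-helix factor of sympathetic neuron development, was highest at 168, 196 and 236 TPM (199.9 ± 34.01 TPM). Its antisense partner HAND2-AS1 stood at 39.6 ± 0.416 TPM. The 250 bases before its RefSeq start site, chr4:173530230-173530479 on the minus strand of GRCh38.p14, are shown because this gene led the list, with CpG dinucleotides in capitals.
HAND2: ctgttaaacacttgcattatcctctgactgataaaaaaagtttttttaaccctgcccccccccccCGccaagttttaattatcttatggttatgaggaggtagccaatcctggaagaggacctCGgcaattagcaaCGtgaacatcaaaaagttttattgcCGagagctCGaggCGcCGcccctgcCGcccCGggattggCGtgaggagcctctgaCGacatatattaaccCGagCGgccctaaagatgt

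SOX11, a factor of embryonic neurons, stood below HAND2 in every library at 65.4 ± 1.72 TPM, and GATA3, a zinc finger factor needed for noradrenergic differentiation, at 58.4 ± 6.65 TPM. PHOX2A, a homeobox factor of the same lineage, stood at 5.74, 9.82 and 12.3 TPM, and GATA2, the paralog of GATA3, at 7.63, 10.8 and 11.1 TPM, with replicate 1 lowest for both. GATA3 exceeded GATA2 by 6.67-, 5.61- and 5.72-fold.

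Lower in the adrenergic list were DACH1 at 34.8 ± 2.22 TPM, KLF7 at 28.4 ± 2.18 TPM and TBX2 at 24.5 ± 1.99 TPM. ISL1, a LIM homeobox factor of the sympathetic lineage, stood at 13.7 ± 0.375 TPM and INSM1, a zinc finger factor of neuroendocrine cells, at 11.2 ± 0.674 TPM. EYA1 stood at 3.55 ± 0.279 TPM, KLF13 at 1.95 ± 0.0521 TPM and SATB1 at 1.63 ± 0.0335 TPM. The other 5 members were not expressed. INSM2 stood at 0.0972, 0.178 and 0.128 TPM, HAND1 at 0.00972, 0.0595 and 0.0272 TPM, ZNF536 at 0.00191, 0 and 0.00356 TPM and TFAP2B at 0.00269, 0 and 0 TPM. SIX3, a forebrain and eye factor, had 0 counts in all 3 libraries, where 3 counts would have been 0.0203 TPM.

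Mesenchymal factors were expressed in the same libraries at lower levels. Of 30 mesenchymal transcription factors 20 (66.7%) were expressed, beside 58.4% of all protein-coding genes, and none reached 100 TPM in all 3 libraries. A threshold of 0.5 TPM gave 24 mesenchymal and 15 of the 20 adrenergic factors, so the order of these shares depended on it. TPM over nuclear protein-coding genes gave the same counts. TWIST1, a basic helix-loop-helix factor of mesenchyme and migrating crest, was highest at 44.97, 47.4 and 50.8 TPM (47.7 ± 2.92 TPM), far above the next member. ZEB1, a repressor of epithelial genes, stood at 19.3, 18.03 and 17.1 TPM (18.1 ± 1.10 TPM), and its paralog ZEB2 at 7.60 ± 0.557 TPM. The Hippo pathway coactivator YAP1 stood at 11.9 ± 0.865 TPM and its partner WWTR1, which encodes TAZ, at 5.12 ± 0.492 TPM. The interferon regulatory factors IRF2 and IRF3 stood at 16.9 ± 1.63 TPM and 11.6 ± 1.16 TPM, and CBFB, the partner subunit of the RUNX factors, at 14.00 ± 1.06 TPM. The factors SMAD3 of the TGF-beta pathway and FOSL1 of the AP-1 complex stood at 9.62 ± 0.735 TPM and 8.83 ± 0.641 TPM.

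Further expressed members, TBX18, SNAI2, SIX4, NR3C1, AEBP1, MAFF, FOSL2, MAML2 and NOTCH2, ran from 8.08 TPM for TBX18 down to 1.28 TPM for NOTCH2. Several factors after which the state is often described were low. PRRX1, a homeobox factor of limb and crest mesenchyme, stayed just under the threshold at 0.895, 0.963 and 0.803 TPM, and RUNX2, the osteoblast factor, at 0.968, 0.842 and 0.748 TPM. IRF1 and EGR3 stood at 0.698 ± 0.0615 TPM and 0.593 ± 0.0556 TPM, and TWIST2 and MEOX1 at 0.177 ± 0.102 TPM and 0.0855 ± 0.0283 TPM. RUNX1, BHLHE41 and GLIS3 were near 0 at 0.00323, 0.0177 and 0.00297 TPM, and MEOX2 had 0 counts, where 3 would have been 0.0233 TPM. CBFB was thus read with its partner RUNX1 near 0 and RUNX2 just below 1 TPM. RUNX3, another RUNX factor, is not given here.

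The median of the adrenergic list was 9.63, 10.6 and 11.9 TPM in the 3 libraries and that of the mesenchymal list 4.26, 4.24 and 4.10 TPM. On the log2(TPM + 1) scale the mesenchymal minus the adrenergic median was -0.998, -1.15 and -1.34 (-1.16 ± 0.17, n = 3), negative in each library. The adrenergic median was lowest in replicate 1 and highest in replicate 3. GC-rich messages were also lowest in replicate 1, but much alike in replicates 2 and 3. The part of GC content in the difference between the lists was not tested. Members of a list are not replicates, so no test was made of the difference between the lists. Bulk RNA cannot tell apart a mixture of cells in different states and single cells that hold both sets of factors.

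**Figure D2:**
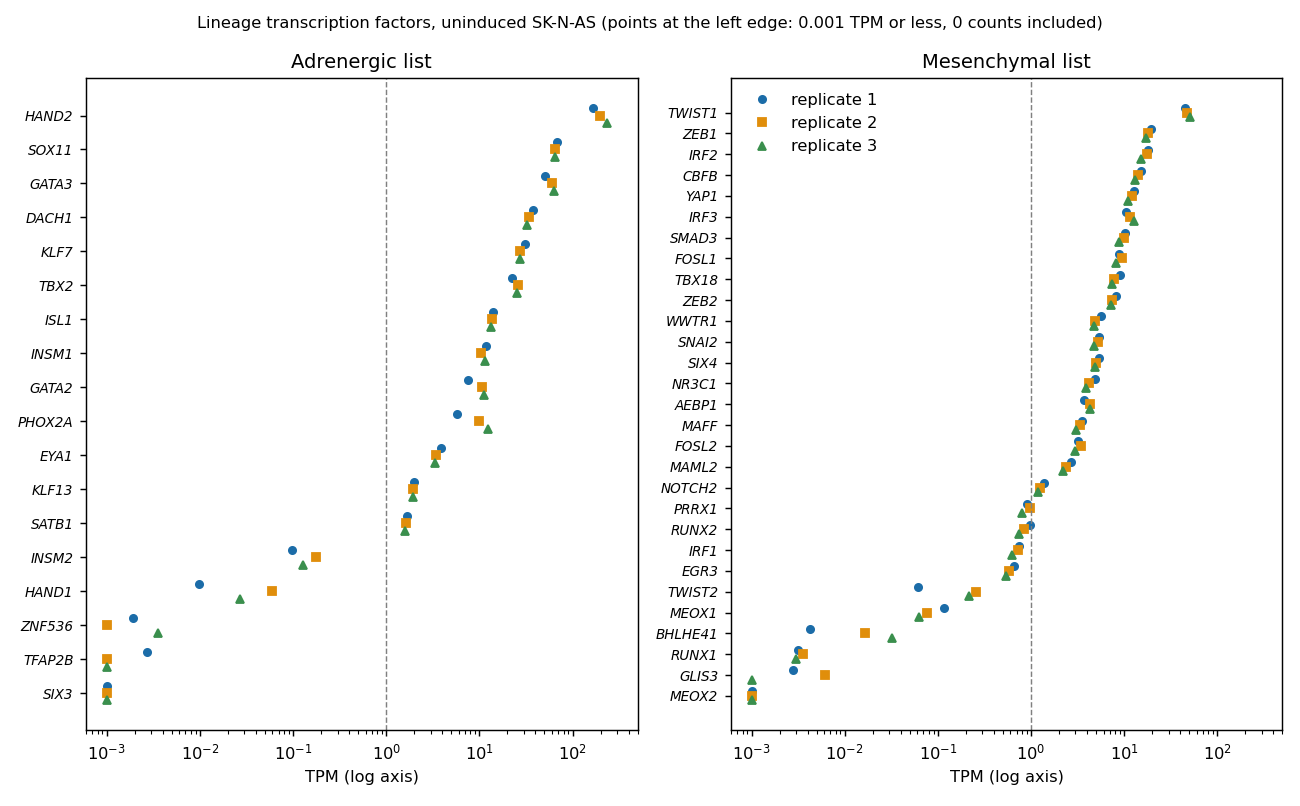
TPM on a log axis of 18 adrenergic (left) and 29 mesenchymal (right) transcription factors in each control library, with a dashed line at 1 TPM and genes ordered by mean. The left panel holds 8 factors that reached 10 TPM in all 3 libraries and the right panel 6, and both lists ended in members at or near 0.

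The genes of the catecholamine pathway were expressed in part. Of 22 genes of catecholamine handling and secretory granules, 10 (45.5%) were expressed, beside 58.4% of all protein-coding genes. CHGA, a granule protein of chromaffin cells, was highest at 74.3, 31.8 and 50.6 TPM, with the largest spread of the list. Its paralog CHGB, named after its values were seen, stood at 0.591, 0.720 and 1.02 TPM, so that CHGA was 126, 44.2 and 49.6 times higher. SCG2, another granin, stood at 41.8 ± 2.30 TPM, and the degrading enzyme MAOA at 46.05 ± 5.49 TPM. SLC6A2, the noradrenaline transporter, stood at 6.15 ± 0.647 TPM and DBH, which turns dopamine into noradrenaline, at 4.90 ± 0.743 TPM. The first 2 enzymes of the pathway were below 1 TPM. TH, the rate-limiting tyrosine hydroxylase, stood at 0.378, 0.493 and 0.776 TPM, and DDC, which makes dopamine, at 0.0536, 0.0119 and 0.0250 TPM, both chosen for naming after their values were seen. PCSK2, a prohormone convertase, and CARTPT, a neuropeptide precursor, had 0 counts, with 3 counts at 0.00785 and 0.0500 TPM.

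Neuronal genes were likewise divided. Of 30 neuronal genes 15 (50%) were expressed, somewhat under the 58.4% of all protein-coding genes. UCHL1, a neuronal ubiquitin hydrolase, stood at 111, 108 and 109 TPM and SYT1, the calcium sensor of synaptic vesicles, at 57.4, 53.9 and 53.6 TPM, each with little spread. PRPH, the intermediate filament of peripheral neurons, stood at 9.06 ± 0.395 TPM, L1CAM, an adhesion molecule of axons, at 8.88 ± 0.688 TPM, and SNAP25 of the release machinery at 3.95 ± 0.270 TPM. The neurofilament subunits NEFL and NEFM stood at 0.0596 and 0.0100 TPM and the growth cone protein STMN2 at 0.0106 TPM. These 3, named after their values were seen, were therefore near 0 in cells with high UCHL1 and SYT1.

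Crest and Schwann lineage genes were mostly low. Of 24 such genes 9 (37.5%) were expressed and 4 (16.7%) had 0 counts, beside 58.4% and 11.0% of all protein-coding genes. SNAI1, a zinc finger repressor of epithelial genes, stood at 22.5, 26.8 and 25.6 TPM, above its paralog SNAI2 at 5.08 ± 0.343 TPM. MSX1, a homeobox factor of the neural plate border, stood at 7.60 ± 0.219 TPM, SOX9, an early crest factor, at 5.82 ± 0.209 TPM, and the cadherin CDH6 at 2.38 ± 0.177 TPM. The early crest factors PAX3, FOXD3 and ZIC1 and the Schwann precursor cadherin CDH19 had 0 counts, where 3 counts would have been 0.00695, 0.0215, 0.00809 and 0.00804 TPM. The FOXD3 promoter, chr1:63322317-63322566 on the plus strand, is shown as that of a silent gene rich in CpG, with 24 of them in capitals.
FOXD3: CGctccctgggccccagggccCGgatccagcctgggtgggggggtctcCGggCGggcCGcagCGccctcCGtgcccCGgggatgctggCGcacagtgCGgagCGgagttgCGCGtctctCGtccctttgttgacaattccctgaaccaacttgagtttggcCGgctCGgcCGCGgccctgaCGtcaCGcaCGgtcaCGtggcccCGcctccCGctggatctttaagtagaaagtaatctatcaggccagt

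Matrix genes were strongly expressed in the same cells. Of 36 mesenchymal and matrix genes 26 (72.2%) were expressed, beside 58.4% of all protein-coding genes, and COL1A1, COL3A1, LGALS1 and VIM reached 100 TPM in all 3 libraries. COL1A1, the alpha 1 chain of type I collagen, stood at 263, 343 and 336 TPM (314 ± 44.4 TPM), and COL3A1 of type III collagen at 313, 307 and 269 TPM (296 ± 23.8 TPM). LGALS1, a galectin, stood at 222 ± 21.7 TPM, the protease inhibitor TIMP1 at 93.7 ± 6.14 TPM and the matrix glycoprotein SPARC at 81.1 ± 6.29 TPM. COL1A2, the other chain of type I collagen, stood at 1.58, 1.44 and 1.57 TPM, so that COL1A1 exceeded it by 166-, 238- and 214-fold. COL1A2 and the calcium-binding protein gene S100A6, at 0.0230 ± 0.00972 TPM, were named after their values were seen.

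CD44, the hyaluronan receptor and a common mesenchymal surface marker, had 0 counts in all 3 libraries. The gene lies at chromosome 11, 35138882-35232402 of GRCh38 with 9992 exon bases, and 3 counts would have been 0.00552 TPM, so the limit is low. The next gene, SLC1A2, a glutamate transporter, also had 0 counts, and PAMR1 beyond it had 1.5, 0 and 2 counts. The genes on either side were expressed. PDHX, of the pyruvate dehydrogenase complex, had 3369, 2872 and 3242 counts (14.2 ± 0.759 TPM). FJX1 on the far side had 796, 733 and 795 counts (5.39 ± 0.261 TPM) and TRIM44 stood at 31.6 ± 2.09 TPM. These neighbours were chosen after their values were seen, and whether the DNA of this stretch is intact was not tested.

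Receptor tyrosine kinases, which carry growth factor signals across the membrane, were read for 58 genes. Of these 28 (48.3%) were expressed, beside 58.4% of all protein-coding genes. At 10 TPM or more in all 3 libraries stood 14 of the 58, beside 25.9% of all protein-coding genes. EPHA3, an ephrin receptor, was highest at 132, 115 and 108 TPM (118 ± 12.2 TPM). Its promoter, chr3:89107371-89107620 on the plus strand, is shown because the gene led the family, with 15 CpG dinucleotides in capitals.
EPHA3: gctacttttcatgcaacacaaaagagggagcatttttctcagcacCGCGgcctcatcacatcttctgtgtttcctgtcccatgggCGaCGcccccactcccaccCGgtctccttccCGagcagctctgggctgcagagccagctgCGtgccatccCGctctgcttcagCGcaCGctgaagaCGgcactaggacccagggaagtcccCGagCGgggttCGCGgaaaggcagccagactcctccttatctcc

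IGF1R, the receptor of insulin-like growth factors, came next at 53.5, 51.9 and 50.3 TPM (51.9 ± 1.62 TPM). RET, the receptor of the GDNF family, stood at 42.9, 42.6 and 42.9 TPM and varied little. DDR2, a collagen receptor, stood at 44.3, 38.3 and 35.00 TPM, EGFR, the epidermal growth factor receptor, at 39.99, 37.1 and 32.8 TPM, and EPHA7 at 37.1, 33.1 and 32.1 TPM. EPHA3 and IGF1R each stood above every library of the next gene, while the ranges of RET and DDR2, of DDR2 and EGFR, and of EGFR and EPHA7 overlapped. The platelet-derived growth factor receptors PDGFRA and PDGFRB stood at 13.4 ± 1.14 TPM and 12.3 ± 0.798 TPM. FGFR1 stood at 10.96 ± 0.410 TPM. EPHA2, RYK, PTK7 and LMTK2 were also above 10 TPM, with means from 12.4 to 22.3 TPM.

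A further 14 members were expressed without reaching 10 TPM in every library. INSRR, an insulin receptor relative, stood at 10.4 ± 0.522 TPM. EPHB4 stood at 9.64 ± 1.24 TPM, MERTK, which clears dying cells, at 8.58 ± 0.827 TPM, the insulin receptor INSR at 7.17 ± 0.248 TPM and TYRO3, of the same group as MERTK, at 5.47 ± 0.433 TPM. ROR1, EPHB2, EPHB3, EPHA1, FGFR4, AXL, FGFR3, DDR1 and ERBB2 ran from 5.10 TPM for EPHB3 to 1.21 TPM for ERBB2. FLT1 crossed the threshold between libraries, at 1.28, 1.15 and 0.890 TPM.

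Receptors known from neuroblastoma and other tumours were among the low ones. ALK, which is mutated in part of these tumours, stood at 0.327, 0.249 and 0.213 TPM, and RET exceeded it by 131-, 171- and 201-fold. NTRK2, the TrkB receptor, stood at 0.130, 0.0958 and 0.136 TPM and NTRK3, the TrkC receptor, at 0.00432, 0.00481 and 0.00346 TPM. MET, the hepatocyte growth factor receptor, stood at 0.137, 0.115 and 0.150 TPM. ERBB3, ERBB4, FGFR2, KDR, TEK, CSF1R and ROS1 had means of 0.0878, 0.210, 0.0182, 0.0184, 0.0809, 0.503 and 0.00124 TPM. KIT, the stem cell factor receptor, was the single member with 0 counts, where 3 counts would have been 0.00992 TPM. In all, 17 members stayed below 0.1 TPM with at least 1 count.

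**Figure D3:**
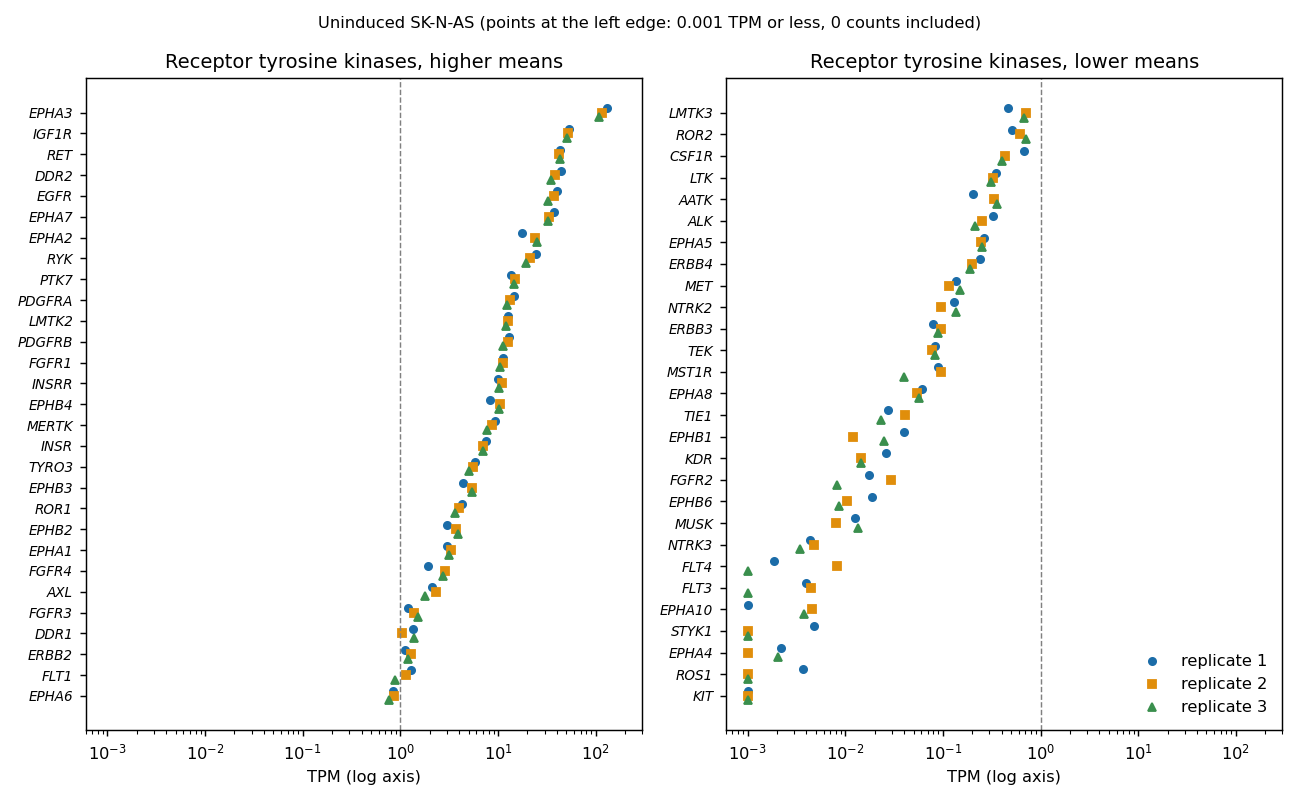
TPM on a log axis of 57 receptor tyrosine kinase genes in each control library, ordered by mean in 2 panels, with a dashed line at 1 TPM. EPHA3 stood alone above 100 TPM in every library, and members from ERBB3 downwards stayed below 0.1 TPM.

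Ligands of these receptors were read in the same libraries. Of 74 ligand genes 35 (47.3%) were expressed, 9 reached 10 TPM and 6 (8.11%) had 0 counts. Over all protein-coding genes these shares were 58.4%, 25.9% and 11.0%. IGF2 exceeded its receptor gene IGF1R by 19.7-, 22.5- and 22.6-fold on the TPM scale, whereas IGF1, the other ligand, stood at 0.00658 ± 0.00314 TPM. MDK, the heparin-binding growth factor midkine, stood at 186, 214 and 217 TPM (205 ± 17.02 TPM) and its relative PTN at 28.4 ± 2.34 TPM. VEGFD, a lymphatic growth factor, stood at 62.8, 55.1 and 54.6 TPM. Its promoter, chrX:15384414-15384663 on the minus strand, is shown as that of an expressed gene poor in CpG, with 2 in capitals.
VEGFD: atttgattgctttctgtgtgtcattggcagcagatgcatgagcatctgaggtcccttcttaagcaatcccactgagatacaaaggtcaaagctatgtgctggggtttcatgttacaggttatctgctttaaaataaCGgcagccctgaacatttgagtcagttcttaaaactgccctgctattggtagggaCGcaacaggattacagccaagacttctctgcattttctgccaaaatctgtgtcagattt

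The receptors of VEGFD and its relatives were low, with FLT1 at 1.11 ± 0.197 TPM, KDR at 0.0184 TPM and FLT4 at 0.00339 TPM, while VEGFB stood at 22.2 ± 1.19 TPM, VEGFC at 14.1 ± 1.15 TPM and VEGFA at 5.95 ± 0.416 TPM. HGF stood at 24.5, 19.9 and 19.1 TPM, so that it exceeded its receptor gene MET by 178-, 173- and 128-fold. The ephrins EFNA5 and EFNA4, which bind receptors of the EPHA group, stood at 35.7 ± 2.60 TPM and 18.1 ± 0.948 TPM, beside EPHA3 and EPHA7. Ligands of RET were low: GDNF stood at 0.0162 ± 0.00304 TPM, ARTN at 0.370 ± 0.0974 TPM and NRTN at 0.779 ± 0.289 TPM, with PSPN at 2.50 ± 0.159 TPM the highest. NTF4, a neurotrophin, stood at 2.75 ± 0.314 TPM.

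For EGFR, the ligand HBEGF stood at 4.37 ± 0.612 TPM and EGF at 0.201 ± 0.0196 TPM. AREG and EREG had means of 0.0134 and 0.00197 TPM, and TGFA and BTC had 0 counts with limits of 0.0112 and 0.0208 TPM. For the PDGF receptors, PDGFB and PDGFC stood at 3.06 ± 0.215 TPM and 2.65 ± 0.156 TPM, while PDGFA and PDGFD had means of 0.00980 and 0.00241 TPM. KITLG stood at 3.08 ± 0.124 TPM without counts of its receptor KIT. Of the ALK ligands, ALKAL2 stood at 0.522 ± 0.0463 TPM and ALKAL1 had 0 counts, as did FGF4, FGF6 and FGF9. Among the other genes of the fibroblast growth factor family FGF5, FGF10 and FGF13 were expressed, at 3.83 ± 0.273 TPM, 3.36 ± 0.0596 TPM and 1.95 ± 0.136 TPM. FGF2 stood at 0.893 ± 0.124 TPM. A place in this list, as for FGF13, does not show that the product acts as a receptor ligand.

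Receptors for transmitters and hormones were mostly below 1 TPM, with the nicotinic receptor of sympathetic ganglia as the leading group. Of 77 receptor genes 21 (27.3%) were expressed and 5 (6.49%) had 0 counts, beside 58.4% and 11.0% of all protein-coding genes. CHRNA3 stood at 106, 94.03 and 89.3 TPM, CHRNB4 at 44.4, 39.5 and 37.4 TPM and CHRNA5 at 21.2, 18.5 and 18.1 TPM. These encode the subunits of the ganglionic receptor and lie in 1 gene cluster, and the ratio of CHRNA3 to CHRNB4 was 2.39, 2.38 and 2.39. The next members were receptors for lipids and proteases: F2R, a thrombin receptor, stood at 16.8 ± 1.12 TPM, S1PR2 at 14.4 ± 0.383 TPM and LPAR3 at 12.95 ± 1.02 TPM. Those at 0 counts were the dopamine receptors DRD1 and DRD5, the somatostatin receptors SSTR1 and SSTR4 and the nicotinic subunit CHRNB3.

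Of 48 nuclear receptors, the ligand-regulated transcription factors, 23 (47.9%) were expressed, beside 58.4% of all protein-coding genes. RORB led with 75.1, 68.6 and 65.99 TPM and PPARG, the fat cell factor, followed with 24.2, 21.3 and 19.6 TPM. NR2F6, RARA, NR1D2 and PPARD had means of 18.6, 16.95, 16.5 and 13.7 TPM. NR1H4, NR2E1, RXRG, NR5A2 and NR0B1 had 0 counts.

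Of 38 cytokine, TGF-beta and death receptors 27 (71.1%) were expressed, beside 58.4% of all protein-coding genes. IL6ST, the shared signalling chain of the interleukin 6 family, stood at 39.3 ± 4.38 TPM, and LIFR, its partner for leukaemia inhibitory factor, at 25.4 ± 3.08 TPM. The death receptor genes TNFRSF21, TNFRSF10B and TNFRSF1A stood at 21.8 ± 0.766 TPM, 21.02 ± 1.37 TPM and 20.4 ± 1.48 TPM, and BMPR2 of the bone morphogenetic protein pathway at 18.2 ± 1.21 TPM. Of 24 Notch, Wnt and Hedgehog receptors and ligands 14 (58.3%) were expressed, the share of all protein-coding genes (58.4%). The Wnt receptor FZD2 led at 19.4 ± 1.22 TPM, followed by NOTCH3 at 18.4 ± 2.15 TPM and the Notch ligand DLL3 at 14.3 ± 1.29 TPM. The Hedgehog pathway members PTCH1 and SMO stood at 13.8 ± 0.376 TPM and 13.4 ± 0.711 TPM. LRP5, a Wnt coreceptor, stood at 8.13, 13.2 and 15.04 TPM, lowest in replicate 1. Of 22 chemokine receptors 4 (18.2%) were expressed, again beside 58.4%. Among them were CXCR4 at 5.15 ± 0.409 TPM and ACKR3 at 4.63 ± 0.136 TPM, both receptors of CXCL12.

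Of 22 surface genes studied as targets in neuroblastoma, 16 (72.7%) were expressed, beside 58.4% of all protein-coding genes. After CHRNA3 and EGFR the highest were CD276, which encodes the checkpoint protein B7-H3, at 20.6 ± 1.06 TPM, then PTK7, DLL3 and CD47, the last at 11.2 ± 1.34 TPM. CD99, a surface glycoprotein of the X and Y chromosomes, had 0 counts. It is the last gene of a run of 15 at 0 counts that starts with PLCXD1 at the tip of X, where all 15 genes read 0. This region has an identical copy on Y in the reference genome, and as only unique alignments were counted, the 0 of CD99 does not show that the gene was silent.

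All 12 genes of the MYC network were expressed, beside 58.4% of all protein-coding genes. MGA, a repressor partner of MAX, stood at 28.03 ± 2.78 TPM, MLX at 22.1 ± 1.79 TPM, MXD3 at 20.5 ± 0.957 TPM and MAX, the partner that MYC proteins need to bind DNA, at 14.04 ± 0.425 TPM. Of 36 genes linked to neuroblastoma tumours 30 (83.3%) were expressed, also beside 58.4%. CCND1, the cyclin of the G1 phase, stood at 114, 121 and 119 TPM and ODC1, which starts polyamine synthesis, at 115, 108 and 104 TPM. The phosphatase PTPN11 stood at 92.8 ± 5.87 TPM, the cyclin-dependent kinases CDK4 and CDK6 at 72.7 ± 3.56 TPM and 65.00 ± 5.32 TPM, and MDM4, an inhibitor of p53, at 46.9 ± 3.96 TPM. NRAS, the gene of a RAS GTPase, stood at 44.1 ± 4.53 TPM and was named after its values were seen. TERT, the telomerase subunit, stood at 0.342, 0.416 and 0.511 TPM, and LIN28B, a let-7 regulator, at 0.00565 ± 0.000504 TPM, both also named after their values were seen.

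All 20 proliferation genes were expressed, 18 of them at 10 TPM or more, beside 58.4% and 25.9% of all protein-coding genes. PCNA, the replication clamp, stood at 106 ± 3.03 TPM, MCM7 and MCM3 of the helicase at 91.6 ± 4.08 TPM and 83.5 ± 6.86 TPM, TOP2A at 90.7 ± 7.73 TPM, MKI67 at 79.2 ± 7.34 TPM and the cyclin CCNA2 at 74.7 ± 5.14 TPM. All 20 housekeeping genes were expressed with a median of 89.1 TPM. The 6 highest were ACTB, GAPDH, EEF1A1, RPLP0, EEF2 and PPIA. EEF2 was the least even of these, at 398, 580.3 and 666 TPM.

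Markers of other cell types were low as lists. Over all protein-coding genes 58.4% were expressed. Of 15 epithelial genes 3 were expressed, and KRT18 and KRT8, filament genes of simple epithelia, stood at 36.7, 37.7 and 31.3 TPM and 27.00, 32.1 and 32.6 TPM. EPCAM and CDH1, the defining epithelial surface genes, stood at 0.326, 0.216 and 0.210 TPM and 0.00680, 0.00403 and 0.00508 TPM, and KRT14 had 0 counts. CDH1 and PECAM1 were named after their values were seen. Of 15 blood cell genes 1 was expressed, CD68 at 3.65 ± 0.385 TPM, while PTPRC stood at 0.341 ± 0.0251 TPM and CD3D, CD3E, MS4A1 and TYROBP had 0 counts. Of 10 endothelial genes 1 was expressed, ESAM at 1.69 ± 0.292 TPM, and PECAM1 stood at 0.0170 TPM. Of 14 melanocyte, glial and muscle genes 2 were expressed, PMEL at 3.09 ± 0.260 TPM and MYH2 at 1.53 ± 0.294 TPM, and OLIG2 and TYR had 0 counts. The summed level of a list ran from 66.6 to 72.4 TPM for the epithelial genes, nearly all of it KRT18 and KRT8, from 4.06 to 4.81 TPM for the blood cell genes and from 2.41 to 2.73 TPM for the endothelial genes. The TYR promoter, chr11:89177625-89177874 on the plus strand, is shown as that of a silent gene poor in CpG, with 2 in capitals.
TYR: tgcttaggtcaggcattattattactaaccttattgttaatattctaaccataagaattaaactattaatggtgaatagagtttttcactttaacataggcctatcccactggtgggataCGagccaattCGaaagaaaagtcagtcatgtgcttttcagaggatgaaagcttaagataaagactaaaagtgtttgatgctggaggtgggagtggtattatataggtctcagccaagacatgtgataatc

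Germline genes were also low as lists. Of 12 liver, germline and pluripotency genes 1 was expressed, SYCP3 of the meiotic chromosome axis at 2.59 ± 0.274 TPM. Of 27 cancer-testis antigen genes, which are normally restricted to the germline, 3 (11.1%) were expressed and 12 (44.4%) had 0 counts. The shares over all protein-coding genes were 58.4% and 11.0%. PRAME stood at 38.5, 43.3 and 39.1 TPM, CTAG2 at 32.6, 35.99 and 37.5 TPM and MAGEC1 at 2.47, 2.001 and 1.78 TPM. PRAME and CTAG2 thus stood more than 10 times above every other member. MAGEA6 and MAGEA3, at 0.468 ± 0.0440 TPM and 0.0981 ± 0.0771 TPM, are near-identical copies, and their counts are uncertain. Members at 0 counts may include such copies too, so a 0 in this list need not show a silent gene.

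Gene families differed in the share of members expressed. Over all protein-coding genes 58.4% were expressed and 11.0% had 0 counts. The members named here were chosen after their values were seen. Of 39 HOX genes, the position factors of the body axis, 11 were expressed, led by HOXC4, HOXC6, HOXD8 and HOXC9 with means of 5.35, 5.11, 4.90 and 3.86 TPM. Of 46 FOX genes 17 were expressed, and FOXR2 led with 56.5 ± 6.002 TPM. Of 17 T-box genes 5 were expressed, led by TBX3 at 81.2 ± 3.25 TPM, and of 19 SOX genes 5, led by SOX4 at 73.4 ± 3.07 TPM and SOX11. None of 9 PAX genes was expressed. Of 65 protocadherin genes 50 (76.9%) were expressed, with PCDH7 at 63.3 ± 3.21 TPM, and of 509 zinc finger genes with a ZNF symbol 373 (73.3%).

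Channel and sensory families had few expressed members. The shares over all protein-coding genes were 58.4% expressed and 11.0% at 0 counts. Of 10 sodium channel alpha genes 3 were expressed, and SCN9A, a channel of sympathetic and sensory neurons, led at 42.5 ± 3.22 TPM. Of 96 potassium channel genes 19 were expressed, of 19 GABA-A receptor genes 1 and of 18 ionotropic glutamate receptor genes 1. Odorant receptor genes were almost all off, with 1 of 415 expressed and 301 (72.5%) at 0 counts. Of 94 keratin-associated protein genes 90 (95.7%) had 0 counts, and of 46 defensin genes 39 (84.8%). As only unique alignments were counted, a 0 in a near-identical copy does not show that the gene was silent.

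**Figure D4:**
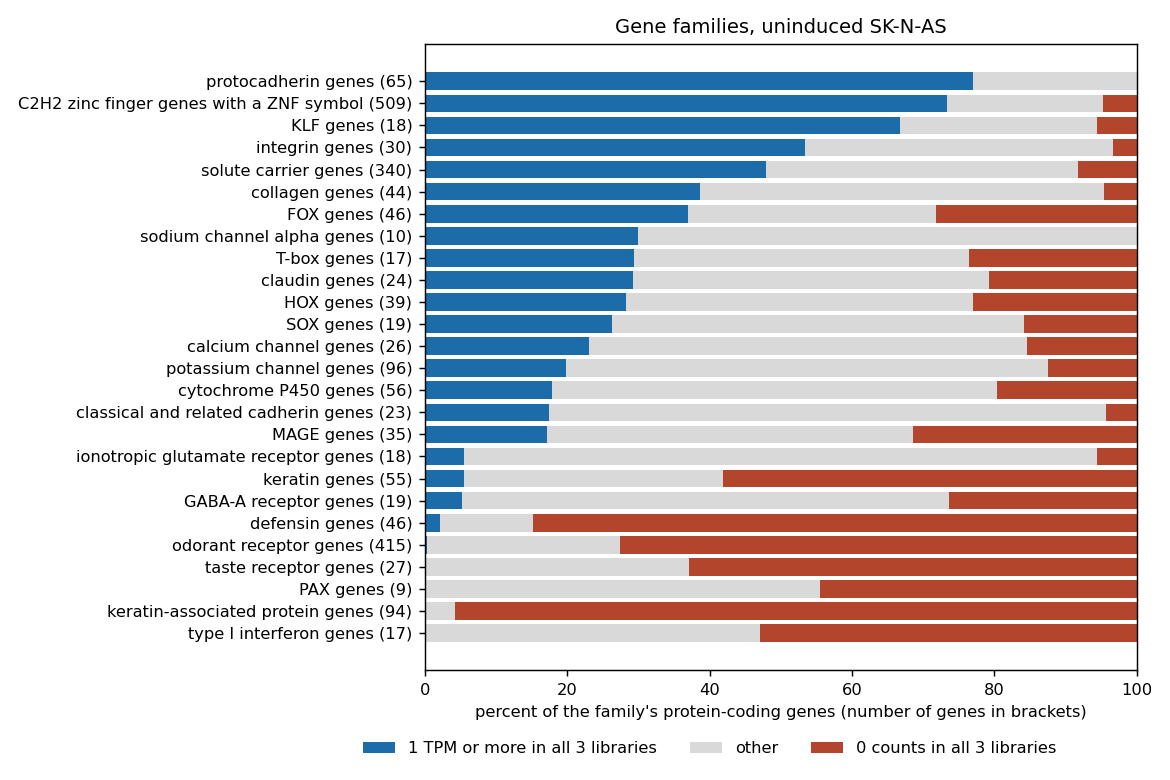
Percent of the protein-coding genes of 26 families at 1 TPM or more in all 3 control libraries (blue), at 0 counts in all 3 (red) or between (grey), with the number of genes in brackets. Protocadherin genes (76.9%) and ZNF genes (73.3%) led, beside 58.4% of all protein-coding genes. Keratin-associated protein genes were 95.7% at 0 counts, beside 11.0% of all.

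Silent genes lay in runs along the chromosomes. Of the 2186 genes with 0 counts, 846 (38.7%) lay in uninterrupted runs of 5 or more neighbouring protein-coding genes. The longest run held 49 genes from KRT12 to KRT13 on chromosome 17 (40861303-41505705), a stretch of keratin and keratin-associated protein genes. The next held 36 genes from OR4B1 to OR5I1 on chromosome 11 (48216810-55936400), mostly odorant receptors, and the third 35 genes from CLDN17 to KRTAP19-8 on chromosome 21 (30165565-31038476). Chromosomes 21, X and 11 held the largest shares of genes at 0 counts, with 31.1%, 22.5% and 20.1%, and the smallest shares of expressed genes, with 45.2%, 45.4% and 49.0%. The share for X includes the 15 genes of the region shared with Y, and near-identical copies on any chromosome can also read 0 under unique alignments.

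Expressed genes had promoters with more CpG dinucleotides than silent genes, as a description without a test. A RefSeq promoter of GRCh38.p14 could be matched by symbol, chromosome and strand for 15298 of the 19870 genes (77.0%), and the 250 bases before its start site were read. The ratio of observed to expected CpG dinucleotides had a median of 0.743 over all of them, 0.833 over 9270 genes at 1 TPM or more and 0.881 over 221 genes at 100 TPM or more. It was 0.427 over 2319 genes below 0.1 TPM with at least 1 count and 0.252 over 1606 genes with 0 counts. A ratio above 0.6 was found for 82.6% of expressed genes and 21.0% of those with 0 counts, beside 64.4% of all. Of the promoters printed with the genes, those of HAND2 and EPHA3 had ratios of 0.853 and 0.665 and that of the silent TYR 0.257. The silent FOXD3 with 0.841 and the expressed VEGFD with 0.172 ran the other way, so the pattern did not hold for each gene.

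Short motifs, searched on both strands in the same 250 bases, were also distributed unevenly. The TATA box core TATAAA was found in 9.33% of all promoters, in 5.40% of those of expressed genes, in 15.8% of those at 100 TPM or more and in 23.5% of those with 0 counts. GGGCGG, the core of the GC box, was found in 56.9% of all, 67.8% of expressed genes and 24.4% of genes with 0 counts. CACGTG, the E-box that MYC proteins bind, was found in 7.80% of all, 8.99% of expressed genes and 4.48% of genes with 0 counts. CCAAT was found in 34.7% of all, 36.3% of expressed genes, 45.7% of those at 100 TPM or more and 34.6% of genes with 0 counts. At 100 TPM or more GGGCGG was found in 61.99% and CACGTG in 11.3%. These motifs share bases with CpG content, since GGGCGG and CACGTG each contain CG, and a match is not evidence of binding.

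Differences between the 3 control libraries ran with the GC content and the length of the messages. Of the 5482 protein-coding genes with a mean of 10 TPM or more, 53 (0.967%) differed by more than 2-fold between the highest and lowest library, and 48 of these were lowest in replicate 1 and highest in replicate 3. RPS18, a ribosomal protein gene, differed most, at 2.86, 2.30 and 372 TPM, a ratio of 162. Its counts were 318, 229 and 44238, lowest in replicate 2, so it did not follow the order of those 48. The median of 83 ribosomal protein genes was 147 TPM. Whether counting by unique alignments made this jump was not tested, and the level of RPS18 is uncertain. The other 9 of the 10 widest were the histone genes H3C13, H4C9, H4C12, H2AC17, H2AC12 and H3C7, the mannosyltransferase subunit gene DPM3, and ENSG00000288608 and ENSG00000267059, with ratios from 2.99 to 4.95. H3C13 stood at 10.9, 35.3 and 53.9 TPM and DPM3 at 17.1, 48.4 and 75.8 TPM. H19, an imprinted lncRNA next to IGF2 and chosen after its values were seen, stood at 152, 323 and 30.6 TPM without any such order.

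Across these 5482 genes the log2 ratio of replicate 3 to replicate 1 had a Spearman correlation of 0.532 with the GC content of the longest transcript, and that of replicate 2 to replicate 1 one of 0.656. For replicate 3 against replicate 2 it was 0.173. With exon length the correlations were -0.336 for replicate 3 to 1, -0.295 for replicate 2 to 1 and -0.268 for replicate 3 to 2. These are descriptions across genes of shared libraries, not tests. Of 5 equal groups of genes by GC content, the median ratio of replicate 3 to replicate 1 was 1.11 in the highest and 0.857 in the lowest. HAND2, GATA3, GATA2, PHOX2A, LRP5 and EEF2 were also lowest in replicate 1 and highest in replicate 3. The part of GC content or length in their spread was not tested.

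**Figure D5:**
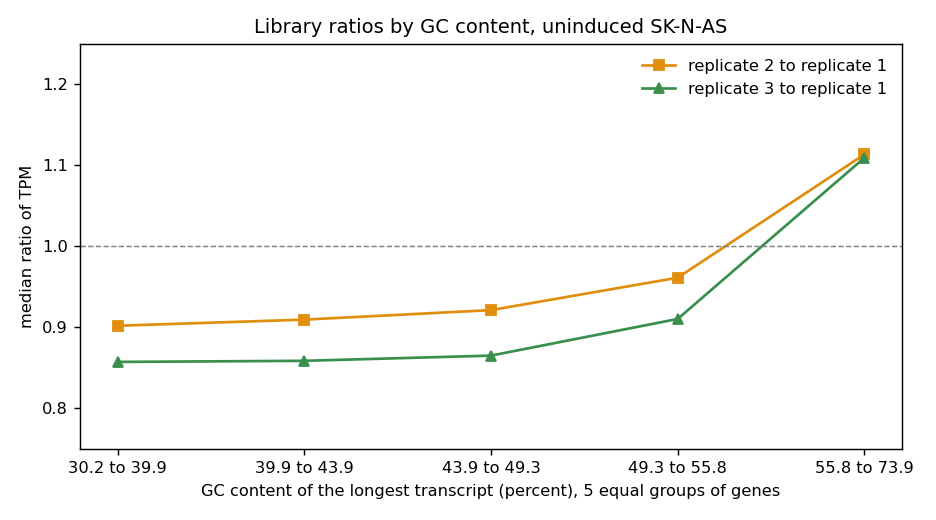
Median ratio of TPM between control libraries for 5482 protein-coding genes in 5 equal groups by GC content of the longest transcript (percent). Both ratios to replicate 1 were below 1 in the 4 lower groups and reached 1.11 in the highest.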

How the data were processed

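Total RNA of SK-N-AS cells had been ribodepleted, made into stranded libraries and sequenced in pairs by the authors. The processing notes name STAR 2.7.1a, featureCounts 1.5.1 and GRCh38, and the study's methods GENCODE gene models and reverse-stranded counting. Per the file headers, however, featureCounts v1.6.4 counted read pairs of unique alignments over exons with no strand option, and divided a pair that overlaps several genes equally. The deposited values were therefore estimated counts that need not be whole, and 32.2% to 33.3% of the nonzero control values were not.

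The 3 libraries labelled Control were described without any test, since they form 1 group, and the induced libraries entered only the check of MYCN. The 92 spike-in rows, all at 0, were left out. TPM was computed from counts and the deposited exon lengths over 60651 genes with Python 3.11.15, numpy 2.4.6, pandas 2.3.3 and scipy 1.17.1, and the computation was tested on simulated data. Figures were drawn with matplotlib 3.10.9. Names and biotypes came from a later GENCODE release by gene identifier, with 99.6% matched and 92.7% at the same coordinates. Depth was 87847999 to 102249336 counts per library. Unique alignments undercount genes with near-identical copies.

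The members and gene lists were chosen with earlier results of these data known. Named were the 4 markers, the 15 highest nuclear protein-coding and 10 highest lncRNA genes, the 10 genes with most counts, the 6 highest members of each list and up to 6 at 0 counts, any lineage factor, receptor tyrosine kinase or ligand, the 10 genes with the widest library ratios and the 3 longest silent runs. Some genes that this rule takes are not reported here, though the counts and medians of their lists include them. Genes outside this rule were chosen after their values were seen. Alternatives were libraries left out, thinning to the smallest total, other thresholds, other TPM totals, overlapping genes (over 20% of exon bases) or genes under 300 bases left out, and factors from edgeR 4.0.16 and DESeq2 1.42.0 in R 4.3.3.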

Additional observations from a re-analysis of the deposited data

How the results depend on the processing

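No paired analysis was possible because the 3 control libraries form 1 condition and no comparison between conditions was made. Leaving out 1 control library at a time gave 11622 to 11690 expressed protein-coding genes and 2425 to 2468 genes at 0 counts. It gave 13.5% to 13.9% of counts from mitochondrially encoded genes, 3.12% to 3.24% from ribosomal protein genes, 6.38% to 6.61% from lncRNA genes and 5.74% to 6.50% from small structured RNA genes. The mesenchymal minus adrenergic median ranged from -1.24 to -1.07, and 357 to 360 of 706 list members were expressed, beside 356 with all 3. VIM ranged from 111 to 119 TPM, ELAVL4 from 43.0 to 47.6, MYC from 18.7 to 19.1 and FN1 from 5.09 to 5.82.

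The shares of counts moved with what entered the total. As shares of summed TPM the mitochondrial, ribosomal protein, lncRNA and small structured RNA genes held 33.8%, 1.74%, 5.04% and 34.6%. Without the 10 genes with most counts they held 5.41%, 3.81%, 5.00% and 1.53%, and without overlapping genes 15.4%, 3.45%, 5.33% and 2.03%, since the removed genes belong to these classes or to the total. Genes with under 3 counts in each library numbered 3419 and those under 0.1 TPM 5361, in place of 2186 at 0 counts, because both thresholds are wider. With members under 0.1 TPM left out, the mesenchymal minus adrenergic median was -2.06, and it was negative under each of the other alternatives. For the markers, with alternatives chosen after seeing the data, TPM over nuclear protein-coding genes gave 494 for VIM, 196 for ELAVL4, 80.7 for MYC and 23.2 for FN1, and TPM without genes under 300 bases gave 163, 64.9, 26.6 and 7.67. Counts of single lists stayed within 1.5 times in 270 of 288 recomputations, and 11 of the 18 others came from a threshold of 10 counts. That threshold gave 14603 expressed protein-coding genes, and TPM over nuclear protein-coding genes gave 13261.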
